A study of Bos taurus with 9 samples.

Results

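Calbindins and S100 proteins are small cytosolic proteins that bind calcium through paired helix-loop-helix folds called EF-hands. The genes described here are *CALB1*, *CALB2*, *S100A6*, *S100A10*, *S100A11*, *S100A13*, *S100A14*, *S100A16* and *S100G*. They were chosen by symbol, and *CALB1* was selected on its lower values in *TEAD4* knockout (KO) embryos in these same libraries, so its contrast is given as a description with no test. Of these 9 genes, 8 are analysed here, among the 21512 genes of the table, and *S100A6* is not analysed here. A median above 0.1 TPM (a unit of transcript abundance that allows for length and sums to 1000000 in each library) was reached by 6 of the 8, namely *CALB1* and 5 S100 genes, and *CALB2* and *S100G* fell under it.

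The question of the study was what the loss of TEAD4, a transcription factor of the Hippo pathway, changes in the bovine blastocyst. RNA was sequenced from single embryos produced in vitro and collected on day (D) 8, 5 wild type (WT) and 4 KO, with inner cell mass (ICM) and trophectoderm together and 1 library per embryo. WT embryos had received *Cas9* mRNA without a guide, according to the methods, and KO embryos *Cas9* mRNA with a single guide RNA against the fourth exon of *TEAD4*. No other treatment is described for either genotype. The indels in KO embryos arose at random, every allele of a KO embryo was frame-disrupting, and the KO embryos need not share an allele. Libraries are named WT_1 to WT_5 and TE_1 to TE_4, where TE in a library name means *TEAD4* KO and not trophectoderm. The sample labels give a different RNA extraction, library kit and sequencer from those in the methods, so the protocol behind the values is not settled. TPM does not keep read numbers, so the number of reads behind each gene's value is unknown and no counting interval is given.

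The labels call the material ICM and trophectoderm cells, and markers of each were present in every library. *KRT8*, a keratin of trophectoderm, ranged from 2721 to 11972 TPM and *KRT18*, its partner keratin, from 1108 to 5631 TPM. *POU5F1* and *DPPA3*, the epiblast markers of highest mean, ranged from 773 to 2142 TPM and from 117 to 321 TPM. The authors state that *POU5F1* and *CDX2* do not exclude each other in bovine embryos as in the mouse, so *POU5F1* may not mark epiblast alone. Among hypoblast markers, *GATA6* ranged from 29.3 to 146 TPM and *SOX17* from 1.91 to 38.1 TPM, while *FOXA2* was listed at 0 in 6 of 9 libraries. The pluripotency factor *NANOG* was 0.127 TPM in WT_1, 2.70 TPM in TE_2 and 3.55 TPM in TE_3, beside 262 TPM in WT_4. *SOX2* was 3.89, 21.0, 2.26 and 90.4 TPM in these 4 libraries, so the 2 genes parted in TE_2. Whole embryos therefore differed in their marker levels within a genotype, and in such bulk samples fewer cells of a type and less RNA per cell cannot be told apart.

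EF-hand proteins act either as buffers, which take up calcium and carry it through the cytosol, or as sensors, which change shape when they bind it and then dock on a partner. Calbindin 1, calretinin (the product of *CALB2*) and the product of *S100G* are buffers known from neurons and from epithelia of kidney, gut, uterus and placenta that move calcium from one face to the other. Most S100 proteins are sensors that work as dimers, and their best known partners are annexins, which bind membrane phospholipids in the presence of calcium. Trophectoderm is the first transporting epithelium of the embryo.

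The edited gene itself was read first. *TEAD4* was 18.0, 52.5, 54.3, 36.5 and 43.4 TPM in WT_1 to WT_5 and 42.8, 41.8, 12.5 and 22.2 TPM in TE_1 to TE_4. The genotypes overlapped, with WT_1 and TE_3 the lowest libraries of their groups, and the log2 fold change was −0.51 ± 0.42 (SE) (limma, adjusted p = 0.947), from −0.77 without WT_1 to −0.16 without TE_3. A small indel in 1 exon need not lower the transcript's TPM, so these values do not check the genotype labels. Here and below, log2 fold changes are KO minus WT on log2(TPM + 1), which understates the change of low genes, and adjusted p-values come from a limma fit to all 14599 genes whose median was above 0.1 TPM.

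In that fit 3 genes (0.0205% of 14599) were called changed with an adjusted p under 0.05 and a log2 fold change beyond 1 in either direction, and 861 (5.90%) had an unadjusted p under 0.05. With 1 embryo left out the number called was 0 (without TE_1, TE_2, TE_4, WT_3 or WT_4) to 10 (without TE_3), so that number depended on single embryos. The 3 are the histone genes *H2AC18* and *H2BC5*, which were higher in KO, and ENSBTAG00000033523, which was lower, and they are named because of their values. Of the 5 S100 members tested, 0 were called by limma and 0 had an unadjusted p under 0.05; without TE_3, 0 were called and 2 had one, *S100A11* and *S100A13*, beside 1077 of all 14664 genes tested in that fit (7.34%). Groups with no overlap were rare in the whole table, with every KO library below every WT library in 179 genes (1.23%) and above in 117 (0.801%), and 0 of these 5 members were in either class. The log2 fold change was below 0 in 4 of the 5 members, with a median of −0.40 beside −0.046 and 55.8% below 0 over all genes tested, and housekeeping genes leaned the same way, with 10 of 12 (83.3%) below 0. That direction held for the same 4 genes under each other scaling of the values tried, but *S100A14* turned negative without TE_1, WT_3 or WT_4 and *S100A16* turned positive without TE_4.

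**Figure D1:**
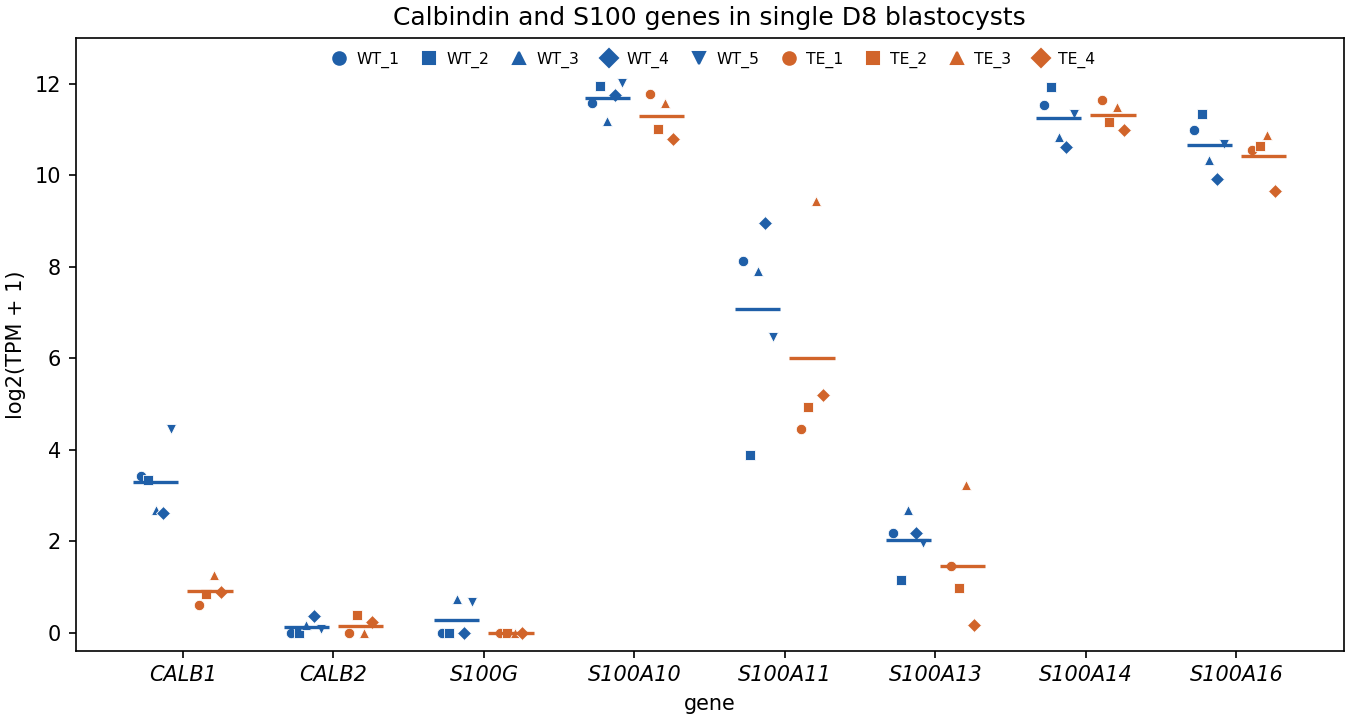
Each point is 1 embryo (blue WT, orange KO, with a symbol for each library), the horizontal lines are group means, and the vertical axis is log2(TPM + 1). *S100A10*, *S100A14* and *S100A16* lie near the top with overlapping genotypes, *S100A11* is spread over a wide range in both genotypes, *CALB2* and *S100G* lie near 0, and all 4 KO values of *CALB1*, which was chosen for lower values in KO, are below the 5 WT values.

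The calcium buffers were at low levels. *CALB1* was 9.72, 9.08, 5.38, 5.08 and 20.8 TPM in WT_1 to WT_5 and 0.522, 0.791, 1.38 and 0.857 TPM in TE_1 to TE_4. WT_5 was the highest library and WT_3 and WT_4 were the lowest of the WT, and each was above TE_3, the highest KO library. The means were 10.02 ± 6.40 TPM over WT embryos (SD, n = 5) and 0.888 ± 0.360 TPM over KO embryos (SD, n = 4), and the log2 fold change was −2.40 ± 0.40 (SE) on the contrast it was chosen for. Among all 21512 genes, *CALB1* ranked between 4493 and 12088 from the top in the 9 libraries.

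Calretinin and the intestinal calbindin were near the floor of the table. *CALB2* was 0, 0, 0.128, 0.286 and 0.0548 TPM in the WT libraries and 0, 0.298, 0 and 0.178 TPM in the KO libraries, so 2 libraries of each genotype were listed at 0 and the genotypes overlapped. *S100G* was 0, 0, 0.653, 0 and 0.5999 TPM in WT and was listed at 0 in all 4 KO libraries. Only WT_3 and WT_5 had a value of *S100G* above 0, and no fold change is given against a group at 0. WT_3 and WT_5 were also the libraries with the most genes above 0 TPM, at 16678 and 16549. The KO libraries had between 14776 (TE_1) and 15375 (TE_4), and WT_1 had 14807. The part of this difference in the values listed at 0 was not tested.

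Genes of the route by which epithelia carry calcium across the cell, and of vitamin D signalling, were read from a list of 17 genes, of which 8 had a median above 0.1 TPM. In limma 0 of the 8 were called and 1 had an unadjusted p under 0.05, and their median log2 fold change was −0.051. By mean over all 9 libraries the most abundant gene of this list was *TRPV5*, an epithelial calcium channel, with 50.0, 34.3, 31.9, 7.98 and 47.3 TPM in WT_1 to WT_5 and 29.3, 59.2, 32.4 and 38.8 TPM in TE_1 to TE_4. WT_4 was the lowest library and the genotypes overlapped (log2 fold change 0.38 ± 0.47 (SE), adjusted p = 0.980). *TRPV6*, its close relative, was between 0 and 0.340 TPM, below *TRPV5* in all 9 libraries. *SLC8B1*, the sodium/calcium exchanger of mitochondria, was 31.8 ± 16.4 TPM over WT embryos (SD, n = 5) and 23.6 ± 24.1 TPM over KO embryos (SD, n = 4) (adjusted p = 0.956, limma). *SLC8B1* exceeded *TRPV5* in WT_2, WT_4 and TE_2. The gene with an unadjusted p under 0.05 was *CYP27B1*, which encodes the enzyme that activates vitamin D, with 0.355, 0.134, 0.669, 0.593 and 0.847 TPM in WT and 0.179, 0, 0.0692 and 0.294 TPM in KO. The 2 lowest libraries of *CYP27B1* were KO and the genotypes overlapped (log2 fold change −0.41 ± 0.17 (SE); limma, adjusted p = 0.812). The vitamin D receptor *VDR* did not exceed 0.122 TPM in any library, and *CYP24A1*, which breaks vitamin D down and is a classic target of its receptor, was listed at 0 in all 9; these 3 genes were named after their values were seen.

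Among S100 members, those that pair with annexins included the most abundant. *S100A10* encodes an S100 protein that has lost calcium binding and joins annexin A2 in a complex beneath the plasma membrane. It was 3036, 3914, 2307, 3443 and 4133 TPM in WT_1 to WT_5 and 3478, 2049.8, 3053 and 1777 TPM in TE_1 to TE_4. TE_2 and TE_4 were the lowest of the 9 libraries, TE_1 and TE_3 lay within the WT range, and the log2 fold change was −0.40 ± 0.26 (SE) (limma, adjusted p = 0.917; exact permutation test, two-sided, p = 0.190). With 1 embryo left out it lay between −0.56 (without TE_1) and −0.24 (without TE_4). *S100A10* ranked between 19 and 74 among all genes.

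*ANXA2*, the annexin of that complex, was 6126, 2960.2, 2439.8, 1474 and 2907 TPM in WT_1 to WT_5 and 2782, 4910.2, 4118 and 3812 TPM in TE_1 to TE_4 (log2 fold change 0.42 ± 0.35 (SE), adjusted p = 0.952). WT_1 had the highest and WT_4 the lowest level of *ANXA2*, and all 4 KO libraries lay between them. *S100A10* TPM exceeded *ANXA2* TPM in 4 of 9 libraries, 3 WT and 1 KO. The ratio of *S100A10* to *ANXA2* was 0.496, 1.32, 0.946, 2.34 and 1.42 in WT_1 to WT_5 and 1.25, 0.417, 0.742 and 0.466 in TE_1 to TE_4, again with overlap. Over the 9 libraries the log2 levels of the pair had Pearson's r of −0.35 and Spearman's rho of −0.38, or −0.10 for r without the 2 libraries farthest from the median of *S100A10*. All correlations over libraries are descriptions over 9 points that share 1 table in which each library sums to the same total.

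*S100A11* encodes a sensor that binds annexin A1 and takes part in membrane repair and keratinocyte growth control. It was 277, 13.7, 238, 494 and 86.4 TPM in WT_1 to WT_5 and 20.9, 29.5, 689.6 and 35.6 TPM in TE_1 to TE_4. The highest level of all was in TE_3 and the lowest in WT_2, so the largest KO value exceeded each WT value while the other 3 KO libraries lay between WT_2 and WT_5. The highest value was 36.0 times the lowest in WT and 33.0 times in KO, and 99.7% of genes tested had a smaller spread within genotypes on the log2 scale. The log2 fold change was −1.06 ± 1.11 (SE) (limma, adjusted p = 0.970; exact permutation test, two-sided, p = 0.492), and it depended on single embryos, with −2.20 without TE_3 and −1.85 without WT_2 beside −0.54 without TE_1 and −0.59 without WT_4. Its adjusted p lay between 0.618 (without TE_3) and 0.999 over the alternatives. *ANXA1*, whose product binds the S100A11 protein, was above *S100A11* in all 9 libraries, with 1006, 402, 694, 645 and 443 TPM in WT and 163, 232, 869 and 746 TPM in KO (adjusted p = 0.942, limma). TE_1 and TE_2 were lowest in *ANXA1* and were also among the 4 lowest libraries in *S100A11*, and the pair had Pearson's r of 0.72 and Spearman's rho of 0.75 over 9 libraries, with r at 0.74 without the 2 libraries farthest from the median of *S100A11*.

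*S100A13* takes part in the export of proteins that lack a signal peptide, such as FGF1. It was 3.53, 1.20, 5.37, 3.48 and 2.91 TPM in WT_1 to WT_5 and 1.73, 0.953, 8.38 and 0.117 TPM in TE_1 to TE_4. TE_3 was the highest and TE_4 the lowest of the 9 libraries, so the KO range enclosed the WT range. The log2 fold change was −0.57 ± 0.54 (SE) (limma, adjusted p = 0.965; exact permutation test, two-sided, p = 0.429), −0.14 without TE_4, and −1.17 both without TE_3 and with a pseudocount of 0.1 TPM. No alternative brought its adjusted p below 0.514, and the highest was 0.999.

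*S100A14* and *S100A16*, whose protein products can bind each other, are known from epithelia. *S100A14* was 2959, 3886, 1827, 1558 and 2589 TPM in WT_1 to WT_5 and 3194, 2280.3, 2848 and 2016 TPM in TE_1 to TE_4. The lowest and highest libraries were both WT, WT_4 and WT_2, and the KO values lay between them (log2 fold change 0.066 ± 0.28 (SE); limma, adjusted p = 0.992; exact permutation test, two-sided, p = 0.857). *S100A16* was 2012, 2561, 1291, 969.8 and 1646 TPM in WT_1 to WT_5 and 1486, 1583, 1867 and 807 TPM in TE_1 to TE_4. TE_4 was the lowest and WT_2 the highest library, with overlap of the other values (log2 fold change −0.23 ± 0.32 (SE); limma, adjusted p = 0.982; exact permutation test, two-sided, p = 0.540). With 1 embryo left out, *S100A14* lay between −0.095 (without WT_4) and 0.23 (without WT_2) and *S100A16* between −0.41 (without WT_4) and 0.030 (without TE_4).

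In order of level, *S100A10*, *S100A14* and *S100A16* came first, then *S100A11*, and then *CALB1* and *S100A13*. *S100A10* exceeded *S100A14* in 7 of 9 libraries, all but TE_2 and TE_4, and the means of these neighbours in WT, 3367 ± 729 and 2564 ± 929.9 TPM (SD, n = 5), differed by less than the SD of *S100A14*. *S100A14* exceeded *S100A16*, and *S100A16* exceeded *S100A11*, in all 9 libraries. *CALB1* was above *S100A13* in all 5 WT libraries and in 1 of 4 KO libraries. The 3 most abundant members together made up between 0.460% and 1.04% of a library's TPM.

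**Figure D2:**
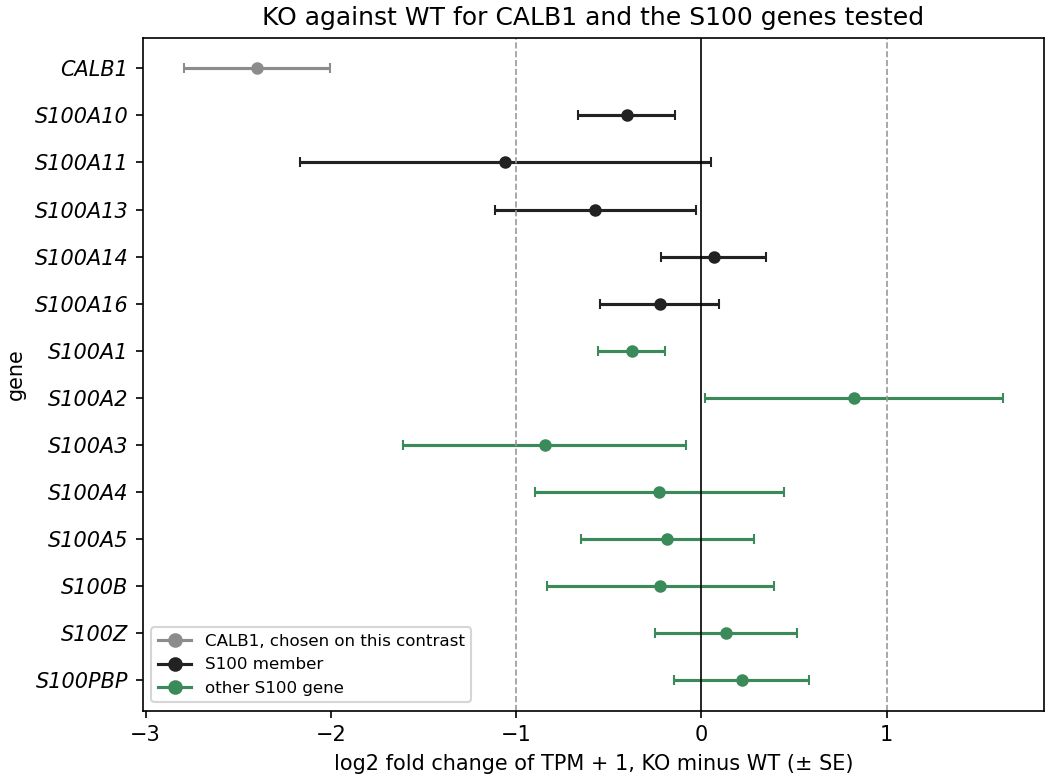
Log2 fold changes of TPM + 1, KO minus WT, are shown with their SE from the limma fit (grey *CALB1*, black S100 members, green other S100 genes), and dashed lines mark a log2 fold change of 1 in each direction. Apart from *CALB1*, which was chosen on this contrast, the S100 genes lie on both sides of 0, and *S100A11*, *S100A2* and *S100A3* have the widest bars.

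Beyond the members, 13 other S100-related genes were listed, of which 12 were analysed here and 8 tested; 0 of the 8 were called and 0 had an unadjusted p under 0.05 in limma, with a median log2 fold change of −0.20 and 5 of 8 below 0. By mean over all 9 libraries the most abundant of them was *S100A5*, with 256, 862, 1029, 833 and 724 TPM in WT_1 to WT_5 and 752, 759, 942 and 228 TPM in TE_1 to TE_4. WT_1 and TE_4 were the low libraries of *S100A5*, and the genotypes overlapped (adjusted p = 0.986, limma). *S100A2*, an S100 gene of basal epithelia, was 402, 203, 629, 593 and 178 TPM in WT and 1738, 76.7, 1788 and 629 TPM in KO, and it exceeded *S100A5* in WT_1, TE_1, TE_3 and TE_4, so the order of the 2 differed between embryos. TE_1, TE_3 and TE_4 were above every WT library, TE_4 only by 629.2 TPM against 628.6 TPM in WT_3, and TE_2 was below every one, with a log2 fold change of 0.82 ± 0.80 (SE) (limma, adjusted p = 0.966). The inflammatory genes *S100A8* and *S100A12*, products of neutrophils, were listed at 0 in all 9 libraries, and *S100A9* did not exceed 0.470 TPM.

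The S100 genes tested, 12 in all without *S100PBP*, were compared in pairs over the 9 libraries. Of 66 pairs, 7 (10.6%) had an r above 0.7 and 3 (4.55%) an r below −0.5, beside 4.71% and 8.30% of all pairs of genes tested, and the median over the S100 pairs was 0.25. Of the 7, 5 were among *S100A3*, *S100A4*, *S100A11* and *S100A13*, 1 was *S100A14* with *S100A16*, and 1 was *S100A2* with *S100Z* (r 0.71, rho 0.55, and 0.55 for r without the 2 libraries farthest from the median of *S100A2*); these groups were singled out after their values were seen. *S100A11* and *S100A4*, a gene tied to cell motility, had Pearson's r of 0.90 and Spearman's rho of 0.97, and r was 0.91 for deviations from the genotype means and 0.83 without the 2 libraries farthest from the median of *S100A4*. *S100A4* was 13.6, 7.67, 30.2, 52.6 and 13.6 TPM in WT_1 to WT_5 and 9.36, 7.85, 75.2 and 10.8 TPM in TE_1 to TE_4, so that TE_3, WT_4 and WT_3 were high in *S100A4*, as TE_3 and WT_4 were in *S100A11*. *S100A13* had an r of 0.83 with *S100A11* and 0.79 with *S100A4*, and *S100A3* had 0.77 and 0.86. Without the 2 libraries farthest from the median of *S100A3*, its r with *S100A11* was 0.48 and with *S100A4* 0.58, so both relations rest in part on those libraries; for *S100A13* the r without its own 2 farthest libraries was 0.87 and 0.79.

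*S100A14* and *S100A16* had Pearson's r of 0.83 and Spearman's rho of 0.78, with r at 0.88 for deviations from the genotype means and 0.67 without the 2 libraries farthest from the median of *S100A14*. The ratio of *S100A14* to *S100A16* was 1.47, 1.52, 1.42, 1.61 and 1.57 in WT_1 to WT_5 and 2.15, 1.44, 1.53 and 2.498 in TE_1 to TE_4. It varied little over the WT embryos, and TE_1 and TE_4 lay above all others. *S100A14* and *S100A11* had an r of −0.45, which was 0.061 without the 2 libraries farthest from the median of *S100A14*.

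**Figure D3:**
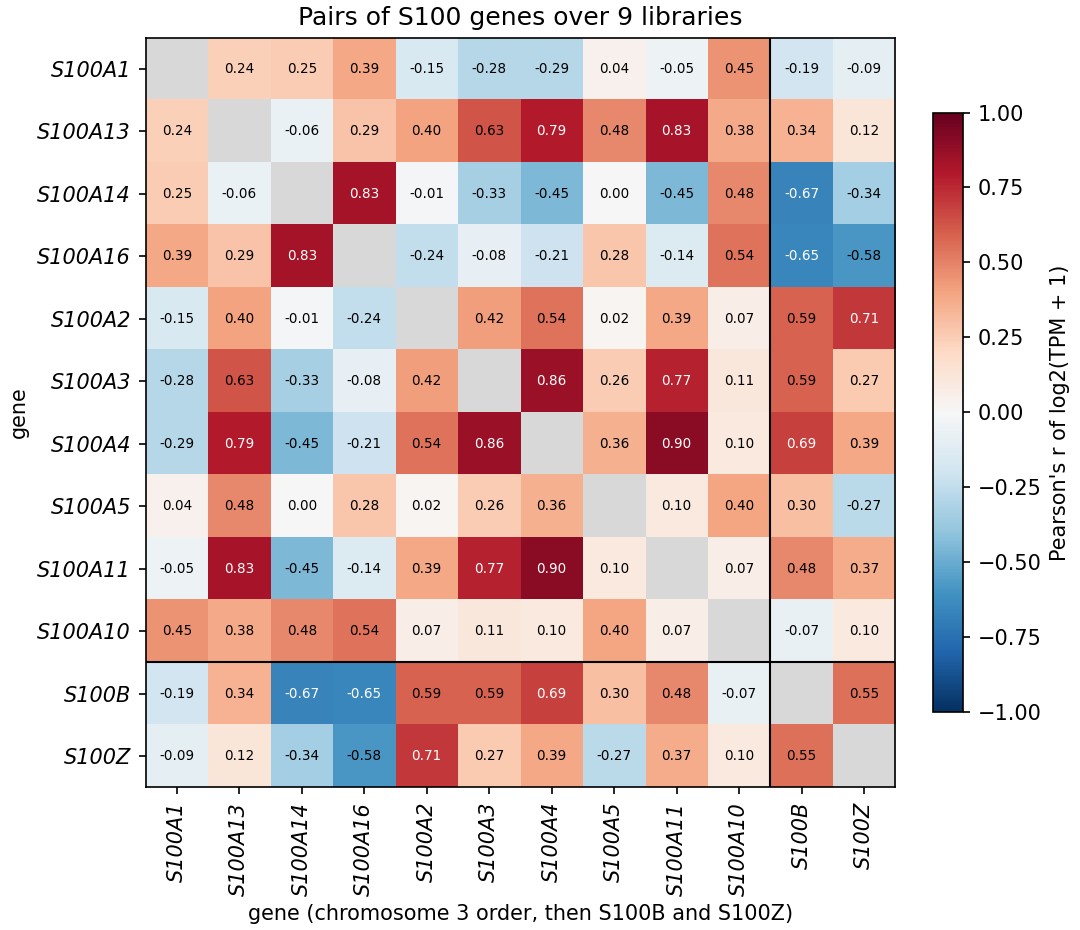
Each square gives Pearson's r of log2(TPM + 1) over 9 libraries for a pair of S100 genes, on a scale from blue (negative) to red (positive), with genes in their order on chromosome 3 and then *S100B* and *S100Z*, which lie elsewhere. *S100A13*, *S100A3*, *S100A4* and *S100A11* share red squares, *S100A14* and *S100A16* form a red pair of their own, and *S100B* is blue with both of these.

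In the RefSeq annotation of the ARS-UCD2.0 assembly, 10 of these 12 genes lie on chromosome 3, and 8 pairs of them have no other protein-coding gene between them. The median r was 0.30 for those 8 neighbouring pairs and 0.25 for the other 37 pairs on the chromosome. An r above 0.7 was found in 2 of the 8, *S100A14* with *S100A16* and *S100A3* with *S100A4* (0.67 and 0.58 without the 2 farthest libraries), and *S100A10* and *S100A11*, also neighbours, had an r of 0.068. *S100A11* and *S100A4*, the pair of highest r, are apart on that chromosome, with 35 protein-coding genes between *S100A5*, the neighbour of *S100A4*, and *S100A11*.

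The members were also set beside markers of the embryo's lineages. The 9 trophectoderm markers sum to 19919, 15375, 8165, 4463 and 15999.8 TPM in WT_1 to WT_5 and 10206, 12943, 8934 and 6829 TPM in TE_1 to TE_4, with *KRT8* making up between 44.7% and 71.6% of the sum and none at 0. The 6 epiblast markers sum to 897, 1164, 1865, 2473 and 1422 TPM in WT and 1789, 2441, 1523 and 2365 TPM in KO, with *POU5F1* making up between 68.5% and 88.8% of the sum and *FGF4* listed at 0 in WT_1 and TE_3. WT_4 was lowest and WT_1 highest for trophectoderm markers, and the reverse held for epiblast markers. Over 9 libraries *S100A16* had an r of 0.80 (rho 0.82) with the log2 sum of trophectoderm markers and −0.79 (rho −0.83) with that of epiblast markers, and without the 2 libraries farthest from the median of the sum, r was 0.75 and −0.70. For *S100A14* the same values were 0.75 (rho 0.70) and −0.73 (rho −0.78), and 0.59 and −0.65 without those libraries. With hypoblast markers r was −0.19 for *S100A16* and −0.50 for *S100A14* (−0.34 without the 2 farthest libraries). In a calculation added after the values were seen, the sum of epiblast markers without *POU5F1* had an r of −0.78 with *S100A16* and −0.74 with *S100A14*, and the sum of trophectoderm markers without *KRT8* had 0.89 and 0.81. The trophectoderm sum without *KRT8* still rests on keratins, with means over all 9 libraries of 3333 TPM for *KRT18* and 1132 TPM for *KRT19*. The next marker by mean was *TFAP2C* at 125 TPM, so the transcription factors of the list weigh little in these r. *S100A10* had an r of 0.30 with trophectoderm and −0.54 with epiblast markers, and 0.69 and −0.61 without the 2 farthest libraries; without *POU5F1* the epiblast value was −0.16. *S100A11* had an r of −0.33 with trophectoderm and −0.069 with epiblast markers. Such relations were computed 18 times, for 6 members and 3 lineages, and the part of cell composition in them was not tested.

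**Figure D4:**
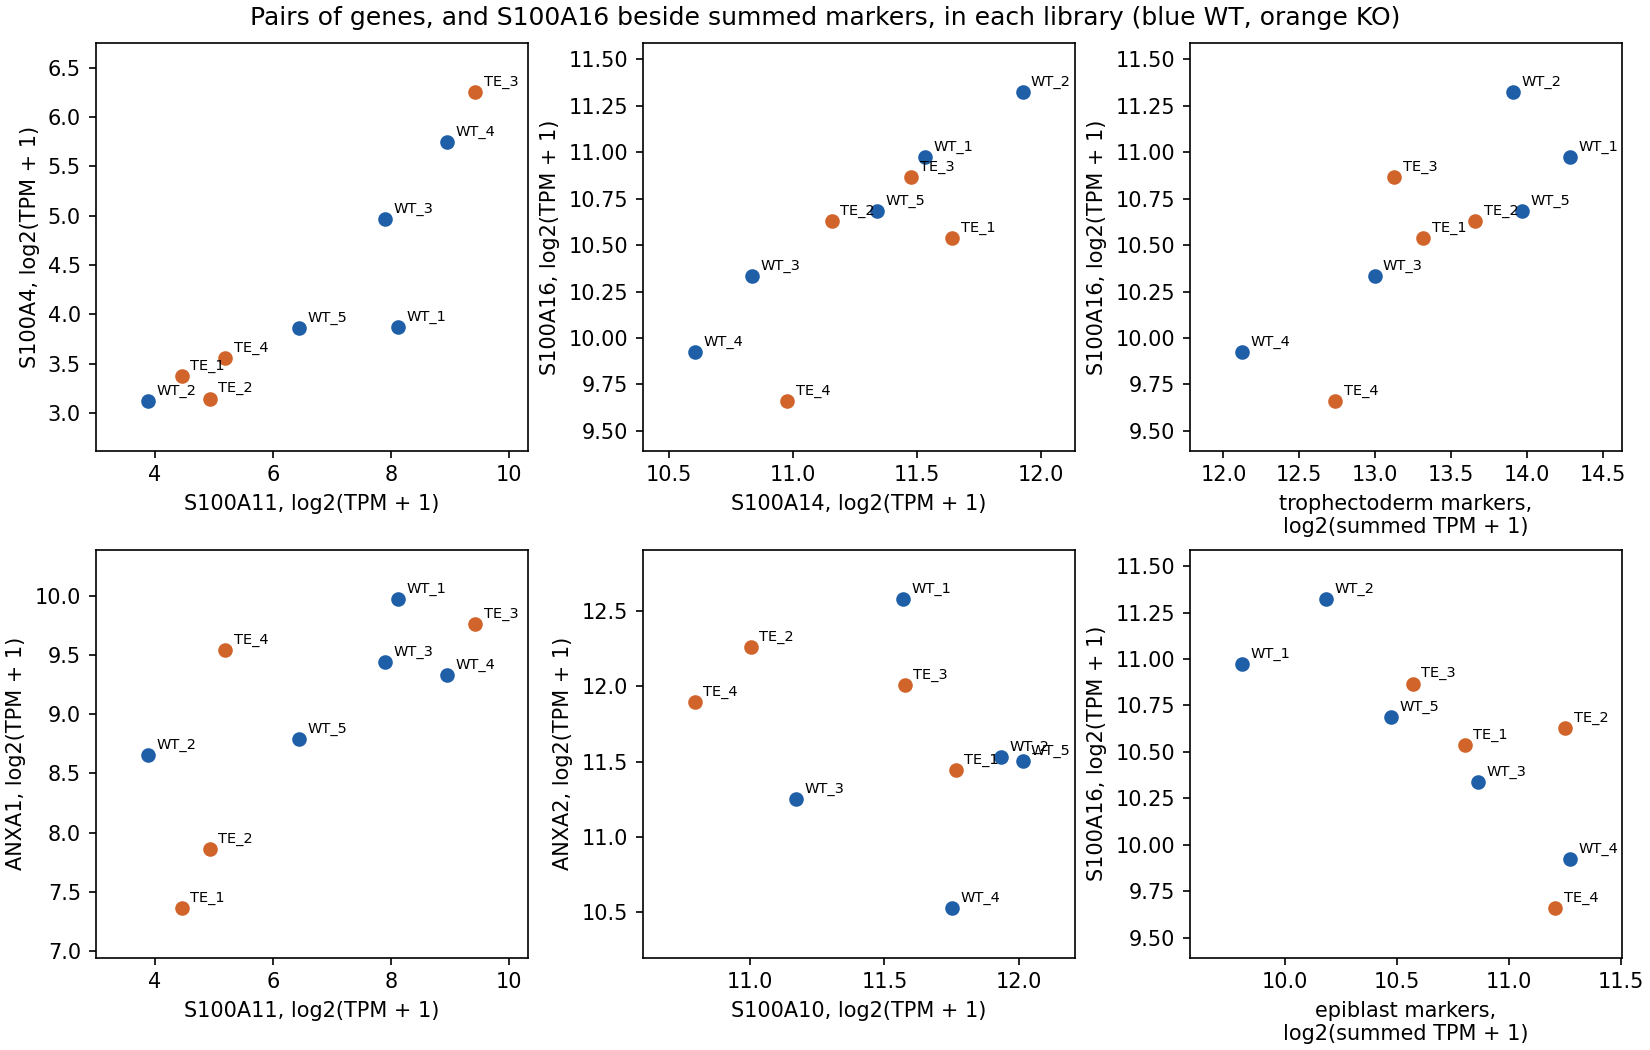
Each panel plots a pair of genes, or *S100A16* against a summed list of lineage markers, as log2(TPM + 1) in each library (blue WT, orange KO). *S100A4* is high where *S100A11* is high, *S100A16* is high where *S100A14* and trophectoderm markers are high and where epiblast markers are low, and *S100A10* shows no such relation with *ANXA2*.

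Hypoblast markers, 7 genes of which 6 were tested, sum to 84.0, 103, 127, 130.1 and 168 TPM in WT_1 to WT_5 and 48.3, 157, 60.9 and 102 TPM in TE_1 to TE_4, with *GATA6* the most abundant. In limma 0 of the 6 were called and 1 (*GATA4*) had an unadjusted p under 0.05, with a median log2 fold change of −0.57 and 5 below 0. Over all genes tested, 5.90% had an unadjusted p under 0.05 in limma and 55.8% were below 0. *GATA4*, a transcription factor of this lineage, was 1.43, 1.75, 1.09, 1.31 and 1.74 TPM in WT and 0.367, 0.6001, 0.957 and 0.638 TPM in KO, with every KO library below every WT library (adjusted p = 0.684, limma). Such a separation was found in 1.23% of all genes tested. *CALB1* had an r of −0.60 (rho −0.62) with the log2 sum of epiblast markers over 9 libraries, 0.48 (rho 0.38) with that of hypoblast markers and 0.42 (rho 0.50) with that of trophectoderm markers. Without the 2 libraries farthest from the median of each sum, these r were −0.43, 0.020 and 0.60. For deviations from the genotype means they were −0.50, 0.16 and 0.62. With the epiblast sum taken without *POU5F1*, the r of *CALB1* was −0.12, and with *POU5F1* alone −0.73. Apart from those for deviations, these r of *CALB1* include the genotype difference on which it was chosen. The values without *POU5F1* and with *POU5F1* alone were not computed for deviations. Trophectoderm markers (9 tested, 1, *TFAP2A*, with an unadjusted p under 0.05) and epiblast markers (6 tested, 0 under 0.05) had 0 calls and medians of −0.23 and −0.47. The epiblast sum ran the other way, at 1564 ± 621 TPM over WT embryos (SD, n = 5) and 2029 ± 446 TPM over KO embryos (SD, n = 4), as did its 2 most abundant genes, *POU5F1* (log2 fold change 0.57 ± 0.26 (SE)) and *DPPA3* (0.23 ± 0.31 (SE)). *SOX2*, *NANOG*, *PRDM14* and *FGF4* were below 0, with log2 fold changes of −0.68, −1.43, −0.26 and −0.96. The direction of the sum rests on *POU5F1*, since without it the mean sum was lower in KO than in WT.

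The genes whose pattern was most like that of *CALB1* were found by Pearson's r of log2(TPM + 1) over the 9 libraries, among 13168 genes with a symbol. They were *GATA4* (r 0.94), *DLL1*, a Notch ligand (r 0.94), *HAVCR2*, an immune receptor (r 0.94), *TTLL3*, an enzyme that modifies tubulin (r 0.93), and *FILIP1L*, a cytoskeletal gene (r 0.92). Each had every KO library below every WT library, as had *CALB1*, which was chosen for lower values in KO, so each r includes the difference between genotypes. *HAVCR2* was 4.39, 5.75, 1.74, 3.63 and 11.5 TPM in WT_1 to WT_5 and 0.747, 1.14, 1.54 and 1.55 TPM in TE_1 to TE_4, with WT_5 highest as in *CALB1*. *FILIP1L* was 6.33, 5.48, 4.01, 4.72 and 7.98 TPM in WT and 0.835, 1.80, 3.91 and 1.53 TPM in KO, where TE_3 came close to WT_3. This set of 5 depended on single embryos, since leaving out 1 library kept between 0 (without WT_5 or TE_2) and 3 of them.

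With the genotype means taken away, the genes most like *CALB1* were *CPT1B*, a mitochondrial fatty acid transferase (r of deviations 0.91), *GREB1L* (0.91), *HAVCR2* (0.91), the ectoenzyme gene *ENPP3* (0.90) and *KLHL14* (0.89). *HAVCR2* was the 1 gene in both sets of 5. *CPT1B* (0.392 to 0.882 TPM), *GREB1L* (0 to 0.773 TPM) and *KLHL14* (0.0929 to 0.432 TPM) were below the pseudocount of 1 TPM in every library. For the values themselves, their r with *CALB1* was 0.20, 0.75 and 0.52 in that order. These r of deviations are the highest of all genes compared, over 9 libraries, and high values can arise from such a search alone. *ENPP3* was 6.44, 1.77, 0.545, 0.0768 and 10.8 TPM in WT_1 to WT_5 and 0.204, 0.477, 0.561 and 0.134 TPM in TE_1 to TE_4, so WT_5 and WT_1 were its high libraries. Among the S100 members, *S100A10* had an r of 0.59 with *CALB1* over the 9 libraries (rho 0.43), *S100A16* 0.37 (rho 0.48), *S100A13* 0.30 (rho 0.37), *S100A11* 0.21 (rho 0.25) and *S100A14* 0.11 (rho 0.083). For deviations from the genotype means the r of these 5, in the same order, were 0.39, 0.42, 0.023, −0.090 and 0.46, and for the values themselves without the 2 libraries farthest from the median of each S100 gene 0.29, 0.33, 0.45, 0.68 and 0.011, so their ranking differed between the 4 measures.

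Annexins were read as a list of 12, of which 11 were analysed here and 8 tested; 0 were called, 1 (*ANXA5*) had an unadjusted p under 0.05 in limma, and the median log2 fold change was −0.25. Other partners and receptors of S100 proteins numbered 11, of which 7 were tested, with 0 called, 1 (*PLAT*) at an unadjusted p under 0.05 and a median of 0.17. *CACYBP*, a scaffold protein gene of the ubiquitin pathway whose product binds S100 proteins, was 509 ± 82.0 TPM over WT embryos (SD, n = 5) and 496 ± 107 TPM over KO embryos (SD, n = 4), and *SUGT1*, a co-chaperone, 176 ± 44.2 TPM over WT embryos (SD, n = 5) and 218 ± 38.7 TPM over KO embryos (SD, n = 4). Both genes had overlapping genotypes (adjusted p = 0.993 and 0.931, limma).

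Genes of calcium stores and store-operated entry, 18 in the list with 16 tested, had 0 calls, 0 at an unadjusted p under 0.05 in limma and a median log2 fold change of −0.062. *MICU2*, a regulator of the mitochondrial calcium uniporter, was 178 ± 28.5 TPM over WT embryos (SD, n = 5) and 212 ± 23.4 TPM over KO embryos (SD, n = 4) (adjusted p = 0.937), and *ATP2A2*, the calcium pump of the endoplasmic reticulum, 33.9 ± 14.1 TPM over WT embryos (SD, n = 5) and 37.0 ± 18.4 TPM over KO embryos (SD, n = 4) (adjusted p = 0.992). The genotypes overlapped in both genes.

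Of 33 other calcium-binding proteins, 32 were tested in limma, 0 were called, 4 (*GCA*, *NCALD*, *RCN1* and *NUCB2*, 12.5%, beside 5.90% of all genes tested) had an unadjusted p under 0.05, and the median log2 fold change was −0.029. *GCA*, which encodes grancalcin, an EF-hand protein first described in neutrophils, was 559, 511, 191, 419 and 449 TPM in WT_1 to WT_5 and 84.8, 176, 133 and 98.2 TPM in TE_1 to TE_4. Every KO library of *GCA* was below every WT library, with WT_3 and TE_2 nearest to each other, and the log2 fold change was −1.75 ± 0.33 (SE) (limma, adjusted p = 0.179, between 0.0791 and 0.490 over the alternatives). *PDCD6*, a sensor of the same EF-hand class that binds proteins of membrane remodelling, was 205, 259, 199.5, 203 and 214 TPM in WT and 187, 166, 145 and 177 TPM in KO, again with every KO library lower (log2 fold change −0.36 ± 0.18 (SE), adjusted p = 0.877). *NCALD*, a neuronal calcium sensor, was 1.30, 0.719, 0.749, 0.893 and 0.894 TPM in WT and 1.98, 1.89, 1.74 and 3.86 TPM in KO, with every KO library higher (log2 fold change 0.78 ± 0.25 (SE), adjusted p = 0.624). These 3 genes are those of the list whose genotypes did not overlap, 2 lower and 1 higher in KO of 32, beside 1.23% and 0.801% of all genes tested.

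**Figure D5:**
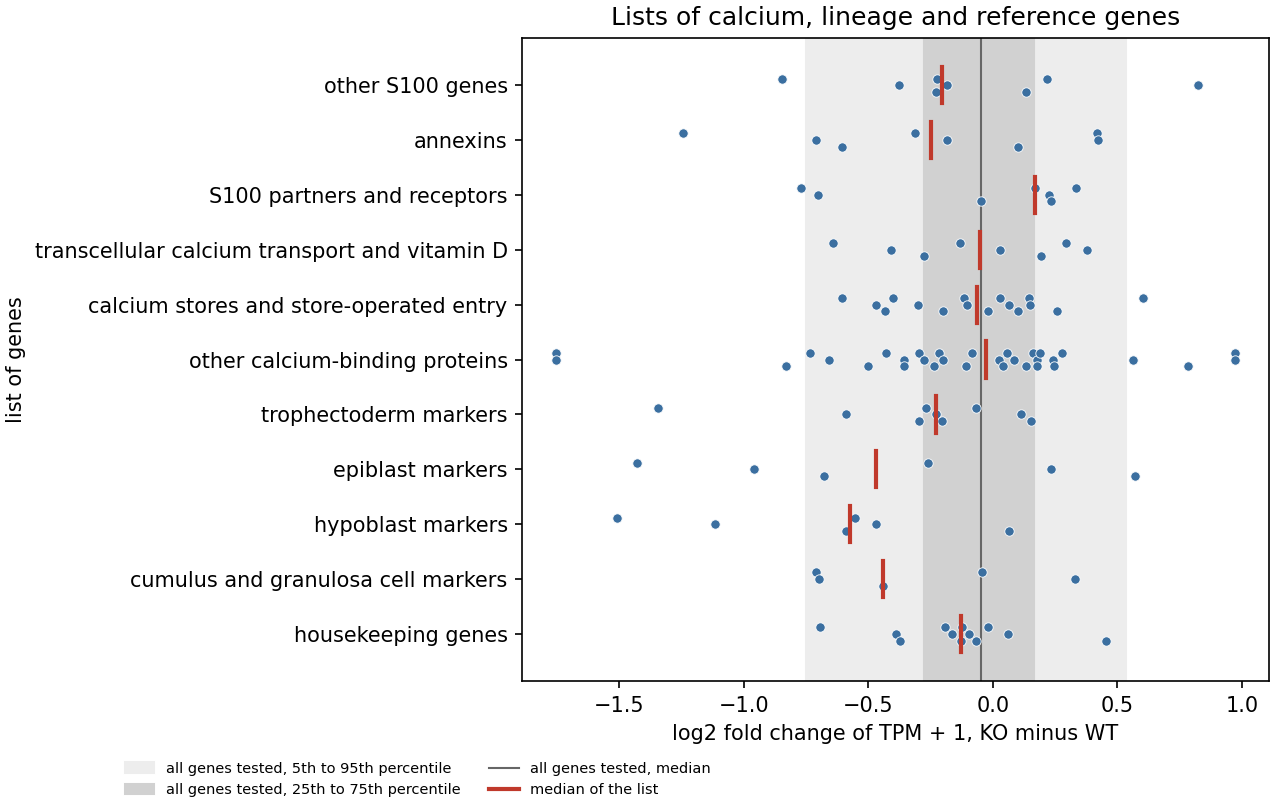
Each blue point is the log2 fold change of TPM + 1, KO minus WT, of 1 gene tested, grouped by list, with the median of the list in red and the spread of all genes tested in grey. The medians of the calcium lists lie within or at the edge of the middle grey band, and the hypoblast, epiblast and cumulus cell lists have their medians to its left.

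Reference genes and markers of the cells that surround the oocyte were read in the same way. Of 12 housekeeping genes tested, 0 were called and 1 (*GAPDH*) had an unadjusted p under 0.05 in limma, with a median log2 fold change of −0.13; *PPIA* was 8758 ± 1453 TPM over WT embryos (SD, n = 5) and 7629 ± 844 TPM over KO embryos (SD, n = 4), and *ACTB* 7943 ± 1799 TPM over WT embryos (SD, n = 5) and 8262 ± 1894 TPM over KO embryos (SD, n = 4). The 8 markers of cumulus and granulosa cells sum to 19.6, 37.4, 24.7, 23.2 and 34.4 TPM in WT_1 to WT_5 and 31.4, 28.9, 30.9 and 4.34 TPM in TE_1 to TE_4, with TE_4 the lowest. *FSHR*, the most abundant of them by mean, was 1.36 to 26.8 TPM and *STAR* 1.62 to 11.7 TPM, while *HAS2* and *PTX3* were listed at 0 in 2 and 6 of 9 libraries. In TE_4 *STAR* exceeded *FSHR*. Of this list 5 genes were tested, 0 were called and 0 had an unadjusted p under 0.05, with a median of −0.44.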

How the data were processed

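RNA from 9 single D8 blastocysts was sequenced, and the table deposited by the authors gives TPM per gene; the submitters' processing notes name FastQC, fastp and kallisto without versions, and the genome build is not given in the sources used here. Columns were taken as WT or KO from their names, and no column of values was left out. Values were used as log2(TPM + 1). Genes with a median above 0.1 TPM were tested with limma 3.58.1 (lmFit, eBayes with trend) in R 4.3.3 with Benjamini-Hochberg adjustment, and called with an adjusted p under 0.05 and a log2 fold change beyond 1 in either direction. Single members other than *CALB1* were also compared by exact two-sided permutation over 126 splits, whose smallest p is 0.0159. Members and lists were chosen with earlier results of these data known. Named are the members, *TEAD4*, from each list the 2 genes of highest mean, every called gene and up to 3 genes without overlap, and 5 genes most like *CALB1* by each of 2 measures; further genes were picked after their values were seen. For other calcium-binding proteins, the genes of highest mean are not reported here. Calls and the fold changes of members, *TEAD4* and genes named for no overlap were recomputed under other settings. These were 0.1 TPM as pseudocount, no filter or a median above 1 TPM, quantile normalization, median-of-ratios size factors, eBayes robust or without trend, and each embryo left out in turn. The 5 genes most like *CALB1* over the 9 libraries were recomputed with Spearman correlation, 0.1 TPM as pseudocount, and without each embryo. Correlations with lineage markers were recomputed without the most abundant marker of each sum. Other correlations, and the genes most like *CALB1* by deviations, were not recomputed with these scalings or filters or without single embryos. RefSeq symbols of ARS-UCD2.0 matched all 8 members and served only to tell neighbouring genes. Protein and promoter sequences were not used here. Python 3.11.15, numpy 2.4.6, pandas 2.3.3, scipy 1.17.1 and matplotlib 3.10.9 were used.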

Additional observations from a re-analysis of the deposited data

Results flagged for a closer look

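Within each genotype, the highest or lowest library of 43 genes (members, genes named by the fixed rule and those most like *CALB1*) was compared with its nearest neighbour in TPM, not on the log2 scale. Of 85 groups of libraries, 7 held 1 library far from the rest relative to the group's range. Chance gives about 1 in 20 for normally distributed values, which TPM values need not be. Several of these genes were also named for values without overlap or for following *CALB1*, so the number is not read against that rate. *S100A11* was 690 TPM in TE_3, against 20.9 to 35.6 TPM in the other KO libraries. *SLC8B1* was 59.5 TPM in TE_2, against 7.72 to 14.8 TPM. *NCALD* was 3.86 TPM in TE_4, against 1.74 to 1.98 TPM. *FSHR* was 1.36 TPM in TE_4, against 21.8 to 23.3 TPM. Among WT libraries, *PDCD6* was 259 TPM in WT_2, against 199.5 to 214 TPM in the others. *DLL1* was 1.58 TPM in WT_5, against 0.544 to 0.678 TPM, and *TTLL3* was 1.32 TPM there, against 0.852 to 0.969 TPM. Both of these are among the genes most like *CALB1*, whose highest value was also in WT_5.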

How the results depend on the processing

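Under every alternative, 0 members other than *CALB1* and 0 genes of each list were called by limma. The number of genes called in the whole table was 3 in the fit as reported, 2 with no filter, 8 with a pseudocount of 0.1 TPM, 8 with a median above 1 TPM, 5 with median-of-ratios size factors, 6 with quantile normalization, 5 without trend, 6 with robust eBayes and, with 1 embryo left out, 0 (TE_1, TE_2, TE_4, WT_3 or WT_4), 1 (WT_5), 2 (WT_1 or WT_2) or 10 (TE_3); the cause was not tested. With an embryo left out, 3 to 5 of the 5 members other than *CALB1* were lower in KO. *S100A14* turned to −0.044, −0.037 and −0.095 without TE_1, WT_3 and WT_4, and *S100A16* to 0.030 without TE_4, from log2 fold changes of 0.066 and −0.23 with all 9; their ranges with 1 embryo left out reached 0.23 (without WT_2) and −0.41 (without WT_4). *CALB1* ranged from −2.57 to −2.11 with an embryo left out and was −3.23 with a pseudocount of 0.1 TPM. With the most abundant marker left out of each lineage sum (added after the values were seen), 4 of 18 r values changed sign, those of *S100A10* (−0.15 to 0.28), *S100A11* (−0.013 to 0.11) and *S100A13* (−0.17 to 0.14) with hypoblast markers and of *S100A13* with trophectoderm markers (−0.046 to 0.24). Toward 0 went, among others, those of *CALB1* (−0.60 to −0.12) and *S100A10* (−0.54 to −0.16) with epiblast markers, and *S100A10* rose from 0.30 to 0.50 with trophectoderm markers. The 5 genes most like *CALB1* shared 3 genes with those found by Spearman correlation or a pseudocount of 0.1 TPM. No paired analysis was possible because the sample titles number the embryos without repeats, and no source ties a WT embryo to a KO embryo. TPM does not give read numbers, so the precision of values near 0, such as those of *CALB2* and *S100G*, is unknown.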
